A study of Mus musculus with 8 samples.

Results

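Cytochrome P450 epoxygenases add an epoxide to arachidonic acid, a fatty acid released from membranes, and so make epoxyeicosatrienoic acids (EETs). Epoxide hydrolases open the epoxide and turn EETs into dihydroxy acids that are mostly less active. In the kidney EETs are made largely in the proximal tubule and the collecting duct, where they are known to restrain sodium uptake and to relax vessels, and mouse strains lacking individual epoxygenases have been studied for changes in blood pressure. The 8 genes described here are the P450 genes Cyp2j5, Cyp2j6, Cyp2j9, Cyp2j11, Cyp2c44 and Cyp2e1 and the hydrolase genes Ephx1 and Ephx2. They were taken by symbol from a table of 23386 genes, in which all 8 were found, and all 8 were among the 14022 genes with enough signal to be tested.

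Messenger RNA was measured in whole left kidneys of 49-week-old mice, 4 Ctrp1-/- animals (KO) and 4 wild-type littermates (WT), 1 library per animal. CTRP1, the product of C1qtnf1, is a secreted relative of adiponectin. KO mice carry a germline deletion in the last exon of C1qtnf1, made in 129S5 embryonic stem cells and backcrossed to C57BL/6J, so every cell of the kidney lacks it and DNA of 129S5 origin can remain around it; both groups came from crosses of heterozygotes, and the labels name no sex for the libraries and no batch. Levels are given as scaled FPKM, that is, the deposited fragments per kilobase of gene, themselves relative to sequencing depth, after division by 1 factor per library, so that levels of different genes in a library can be set side by side. Replicate numbers only name the animals.

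The libraries held between 15027400 and 19256378 counted reads. C1qtnf1 measured 0.188, 0.575, 0.227 and 0.311 scaled FPKM in KO replicates 1 to 4, against 3.85, 2.74, 3.18 and 4.75 in WT replicates 1 to 4 (limma adjusted p = 0.000768, with a log2 fold change of -2.32 and an SE of 0.18). The proximal tubule marker Slc34a1, a phosphate transporter, stood between 2318 and 2995 in all 8 libraries. Of the markers of liver, an organ rich in P450 enzymes, Alb reached 9.77 at most and Ttr stood between 67.8 and 107.5, and of those of adrenal cortex Cyp11a1 reached 0.0361 at most and Star stood between 1.11 and 1.395. Genes of high GC content were relatively high in WT replicates 1, 2 and 4, where Spearman's rho of a library's deviations with GC content across genes was 0.286 to 0.462, and relatively low in the KO libraries (-0.392 to -0.069) and in WT replicate 3 (-0.24). The tubule injury marker Havcr1 was highest in WT replicate 3 (4.73) and ran between 0.482 and 1.89 elsewhere.

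The genes lie on 5 chromosomes, and the Cyp2j genes form a cluster on chromosome 4. Cyp2j5 (ENSMUSG00000052520) spans chromosome 4 from 96628773 to 96664154 on the minus strand of mm10, and Cyp2j9 (96568429 to 96591578), Cyp2j6 (96516138 to 96553661) and Cyp2j11 (96294508 to 96348662) follow on the same strand. Cyp2c44 lies on chromosome 19 (44005022 to 44029247, minus strand), Cyp2e1 on chromosome 7 (140763739 to 140774975, plus strand), Ephx1 on chromosome 1 (180976155 to 181020904, minus strand) and Ephx2 on chromosome 14 (66084377 to 66124500, minus strand). In the longest coding transcript of GENCODE vM21 the 6 P450 genes and Ephx1 each have 9 exons and Ephx2 has 19. No other gene of the table overlaps their spans.

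Promoters of 5 of the 8 genes are described here from RefSeq (GRCm38.p6, the assembly of mm10), and the stretch from 40 to 11 bases before each annotated start is shown to let the abundant genes be compared with the scarce ones where a TATA box would lie. The starts are those of RefSeq and differ from the ends of the spans given above. The stretches of Ephx1, Cyp2e1 and Cyp2j9 lie inside those spans, that of Cyp2j5 lies partly inside, and that of Cyp2j11 lies outside. Capitals mark TATAAA on the strand of the gene.
Cyp2e1 (chr7:140763779-140763808, plus strand): acgacacgtTATAAAatccttgtttctcct
Cyp2j5 (chr4:96664130-96664159, minus strand): acagtgggtaatccaagccacagcagggct
Cyp2j11 (chr4:96348691-96348720, minus strand): gggtgtggccagtaggaacagagtgaatgt
Cyp2j9 (chr4:96591496-96591525, minus strand): gttgctgaagtgaatagagcagggaggagg
Ephx1 (chr1:181017580-181017609, minus strand): gccttggccaaccagccaactcgggggtgg

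Cyp2e1, the most abundant of the 8, had TATAAA in this stretch, starting 31 bases before the annotated start, and the other 4 did not. Anywhere in the 300 bases from 250 before to 50 after the start, on either strand, TATAAA occurred in 13.6% of the 32851 RefSeq promoters, and there Cyp2j5 and Ephx1 held it too. AGGTCA, a core element that nuclear receptors bind, occurred in 16.3% of all promoters and, among the 5, in Cyp2j5, 197 bases before its start; the capitals mark it in the next sequence.
Cyp2j5 (chr4:96664299-96664328, minus strand): ctggaaaacagcAGGTCAaagactggggtc
Of the other motifs searched on both strands, GTTAAT (7.10% of all promoters), TGACNNNGC (12.4%) and the full palindromic androgen response element (0.00913%) matched none of the 5, and TTCNNNGAA (8.30%) matched Cyp2j11. Cyp2j5 and Cyp2j11, whose levels varied alike over the libraries, had no searched motif in common. A match describes the letters of this window, and none of these matches overlapped another.

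In every library the order of levels began with Cyp2e1, Cyp2j5, Ephx2 and Cyp2j11 and ended with Cyp2j6 and Cyp2j9. Averaged over the 8 libraries Cyp2e1 stood at 813 scaled FPKM, the rank of 43 among the 14022 genes tested, and Cyp2j5 at 544 (rank 70). Ephx2 stood at 199 (rank 312), Cyp2j11 at 89.3 (rank 738), Ephx1 at 36.4 (rank 1875), Cyp2c44 at 34.0 (rank 2005), Cyp2j6 at 10.4 (rank 5473) and Cyp2j9 at 6.47 (rank 7278). Cyp2c44 and Ephx1 were the pair that exchanged places. Ephx1 was above Cyp2c44 in 3 libraries, KO replicates 1, 2 and 3, and Cyp2c44 was above Ephx1 in the other 5, KO replicate 4 and all 4 WT libraries. The ranges of these 2 genes overlap, whereas no other neighbours in the order overlap in scaled FPKM over the 8 libraries. Reads behind a value ran from 232 for Cyp2j9 in KO replicate 3 (exact 95% Poisson interval 203 to 264, counting error only) to 28777 for Cyp2e1.

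**Figure D1:**
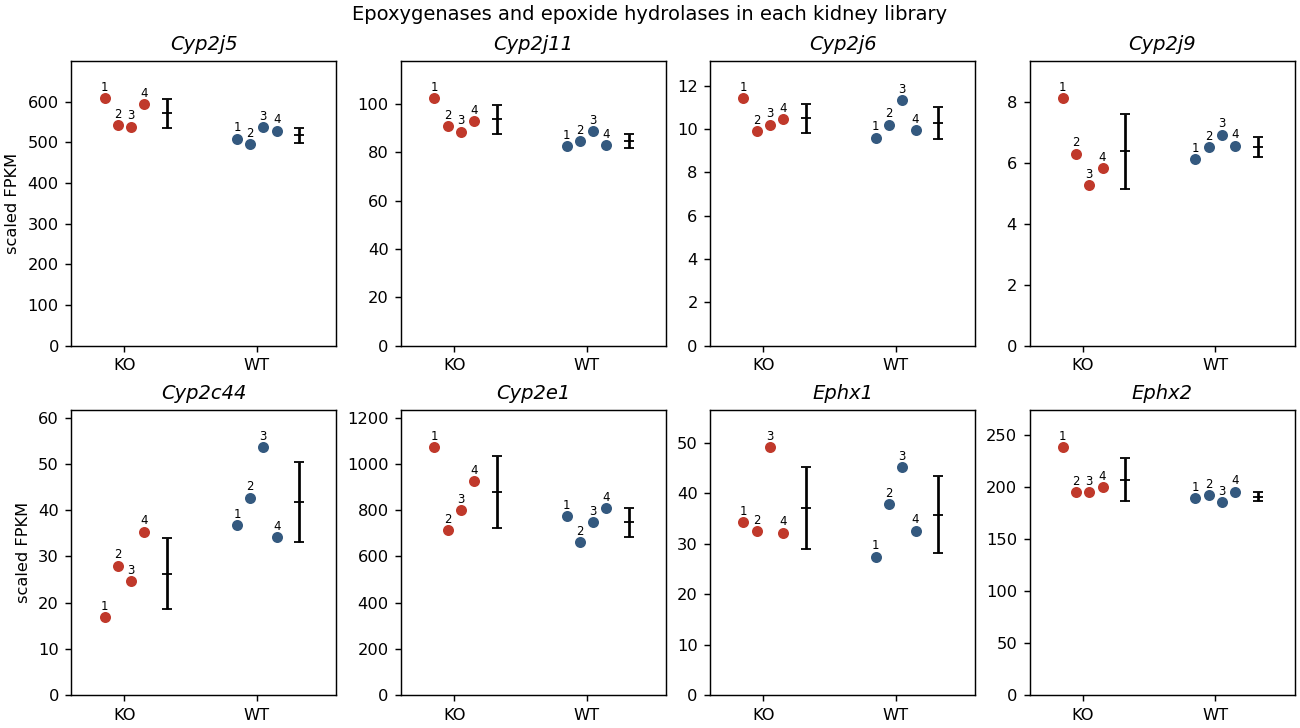
Scaled FPKM (vertical axes, linear, from 0) of the 8 genes in each kidney library of KO (red) and WT (blue) mice, with replicate numbers above the points and the mean ± SD (n = 4) beside them. Cyp2c44 ran lower in KO, from 16.9 to 35.4 against 34.2 to 53.6 in WT, and KO replicate 1 was the highest point for 6 genes.

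None of the 8 genes differed between the genotypes by the test across all genes: 0 members were called at a limma adjusted p under 0.05, where 7 genes of 14022, or 0.0499%, were called in all (0.0285% higher and 0.0214% lower in KO). At an unadjusted limma p under 0.05 stood 3 members, Cyp2j5 and Cyp2j11 higher in KO and Cyp2c44 lower, where 15.4% of all tested genes stood (7.18% higher and 8.26% lower in KO). That number of members was 1 with GC and length trends removed (1588 of 13947 genes in all), and of the 14022 genes tested it was 1 without KO replicate 1 (1503 genes in all), WT replicate 1 (1652), WT replicate 2 (1510) or WT replicate 4 (1844). It was 2 without KO replicate 4 (2046 genes in all), 2 without the mean-variance trend in limma (2063) and 2 with no filter on low values (2709 of 23386 genes). It was 4 without KO replicate 2 (1938 genes in all) and 5 after quantile normalization (2147). limma's voom on reads recovered from the table also called 0 members and put the number at the unadjusted threshold at 3. The fitted difference was above 0 for 6 members and below 0 for 2, with a median log2 fold change of 0.08 beside -0.001 over all tested genes. In bulk tissue fewer cells of a type and less RNA per cell cannot be told apart, and since nothing says that the samples came from separate litters or days, the p-values measure the spread between these animals.

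Cyp2j5, the main Cyp2j epoxygenase of mouse kidney and known in mice to respond to androgen, measured 608.5, 543, 539 and 594 scaled FPKM in KO replicates 1 to 4, against 509, 496, 537 and 529 in WT replicates 1 to 4. The groups did not overlap, but the lowest KO library (539) and the highest WT library (537) were close, and across all tested genes the groups did not overlap for 8.62% (4.34% higher and 4.28% lower in KO). Of the 8 genes it was the 1 without overlap; in the FPKM as deposited and after quantile normalization it was 3, Cyp2j5, Cyp2j11 and Ephx2, beside 8.74% and 8.32% of all tested genes. The KO mean was 571 ± 35.3 and the WT mean 518 ± 18.5 (SD, n = 4 each), a ratio of 1.10. The limma adjusted p of 0.298 missed the threshold, at a log2 fold change of 0.14 (SE 0.06, 95% interval 0.01 to 0.27). The interval leaves room for a level in KO up to 1.21-fold that of WT, and with GC and length trends removed the log2 fold change was 0.08.

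Cyp2j11, in the same cluster, measured 102, 91.0, 88.6 and 93.0 scaled FPKM in KO replicates 1 to 4, against 82.5, 84.6, 88.8 and 83.1 in WT replicates 1 to 4. The lowest KO library lay just under the highest WT library, so the groups overlapped by that margin. The means were 93.8 ± 6.06 in KO and 84.8 ± 2.84 in WT (SD, n = 4 each), and the log2 fold change of 0.14 (SE 0.06, 95% interval 0.02 to 0.27) had a limma adjusted p of 0.270; with GC and length trends removed it was 0.08. Cyp2j5 and Cyp2j11 thus stood at KO to WT ratios of 1.10 and 1.11.

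Cyp2j6, reported in several mouse tissues, measured 11.4, 9.91, 10.2 and 10.4 scaled FPKM in KO replicates 1 to 4, against 9.60, 10.2, 11.3 and 9.94 in WT replicates 1 to 4. The groups covered nearly the same range, and the log2 fold change was 0.03 (SE 0.07, 95% interval -0.12 to 0.18, limma adjusted p = 0.856). Cyp2j9, best known from mouse brain, measured 8.13, 6.31, 5.27 and 5.85 in KO replicates 1 to 4, against 6.13, 6.53, 6.94 and 6.58 in WT replicates 1 to 4. The KO libraries enclosed the WT range on both sides, with a coefficient of variation of 19.4% in KO and 5.03% in WT, and the log2 fold change was -0.05 (SE 0.11, 95% interval -0.30 to 0.20, limma adjusted p = 0.869). The direction of both of these small differences depended on the setting.

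The cluster spanned a wide range of levels. Summed over the Cyp2j genes of the table, scaled FPKM was 770 ± 48.6 in KO and 682 ± 26.7 in WT (SD, n = 4 each), of which Cyp2j5 made 74.1% ± 0.724 in KO and 76.0% ± 1.12 in WT. Cyp2j13, not among the 8 genes and known in mice as a male-biased kidney gene, measured 97.4, 83.9, 81.6 and 86.4 in KO replicates 1 to 4, against 68.3, 46.5, 52.1 and 75.9 in WT replicates 1 to 4. Its groups did not overlap, while the limma adjusted p of 0.170 missed the threshold (log2 fold change 0.55, SE 0.14). Cyp2j7 stood at 1.148 ± 0.0578 in KO and 1.35 ± 0.402 in WT (limma adjusted p = 0.658), Cyp2j8 at 0.3203 at most in KO and 0.410 at most in WT, and Cyp2j12 had a value above 0 in 1 library, KO replicate 3 (0.0647).

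**Figure D2:**
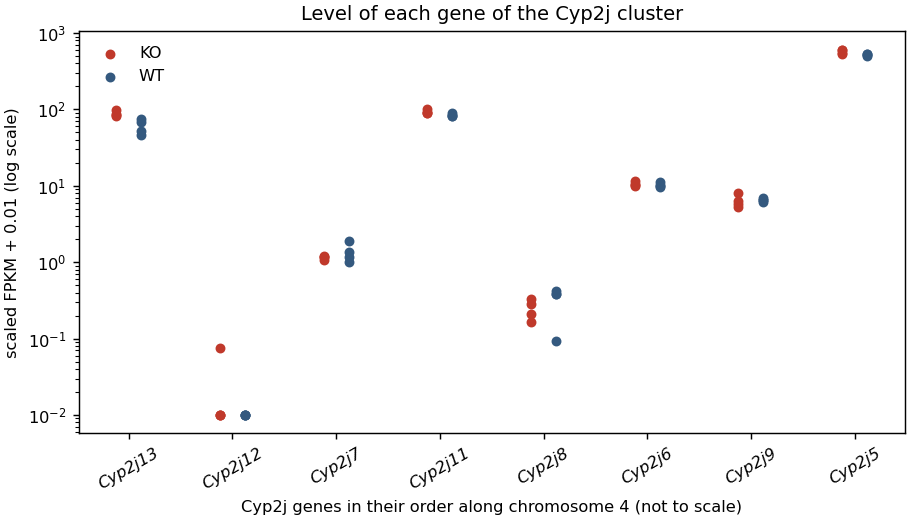
Scaled FPKM plus 0.01 (vertical axis, log scale) of the Cyp2j genes in their order along chromosome 4 (horizontal axis, not to scale), each point 1 library of KO (red) or WT (blue) mice. Cyp2j5, Cyp2j11 and Cyp2j13 stand far above their neighbours, and Cyp2j12 is at the bottom in all libraries but 1.

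The Cyp2j genes are similar in sequence, which bears on how reads are assigned. Of the windows of 50 bases in the longest coding transcript, 0.174% in Cyp2j5, 0.422% in Cyp2j6, 1.34% in Cyp2j11 and 0% in Cyp2j9 occurred unchanged in a transcript of another gene. The genes sharing the most windows with them were other Cyp2j genes (Cyp2j7, Cyp2j8, Cyp2j12 or Cyp2j13). At 100 bases no window of these 4 genes was shared. Cyp2e1 shared 4.82% of its windows of 50 bases and 1.499% of those of 100 bases, among others with Fcho2, Ephx1 shared 1.89% at 50 bases, and Cyp2c44 and Ephx2 shared none. Most windows of each transcript thus had no exact copy in another gene at these lengths. A window that differed by any base counted as not shared, so these shares cannot show how reads of similar genes were assigned. The length of the reads behind the table is not stated in the labels.

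Cyp2c44, regarded as the main Cyp2c epoxygenase of mouse kidney and studied there for its part in salt handling, had the largest fitted difference of the 8 genes. It measured 16.9, 28.0, 24.6 and 35.4 scaled FPKM in KO replicates 1 to 4, against 36.7, 42.7, 53.6 and 34.2 in WT replicates 1 to 4. KO replicates 1, 2 and 3 lay below every WT library, and KO replicate 4 lay just above WT replicate 4. The means were 26.2 ± 7.67 in KO and 41.8 ± 8.61 in WT (SD, n = 4 each), a ratio of 0.627. The log2 fold change was -0.69 (SE 0.21, 95% interval -1.15 to -0.23), with an unadjusted limma p of 0.00803 and an adjusted p of 0.204 that missed the threshold. The spread within groups was wide, with coefficients of variation of 29.3% in KO and 20.6% in WT. Without KO replicate 1 the log2 fold change was -0.50, and without WT replicate 3 it was -0.56.

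Of 15 other Cyp2c genes listed, 8 were analysed here, and their levels were low. Of these 8, Cyp2c68 passed the filter on low values, at 0.480 ± 0.162 scaled FPKM in KO and 0.647 ± 0.170 in WT (SD, n = 4 each, limma adjusted p = 0.531), and the sum of all 8 was 0.624 to 1.08 in KO and 0.962 to 1.28 in WT. Beside these 8, Cyp2c44 made up nearly all of the signal.

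Cyp2e1 is best known for oxidising ethanol and other small molecules, and it also hydroxylates arachidonic acid; in mouse kidney it is known to respond to androgen. It measured 1072, 713, 801 and 926 scaled FPKM in KO replicates 1 to 4, against 773, 662.5, 747 and 807.5 in WT replicates 1 to 4. KO replicates 1 and 4 lay above the WT range, and KO replicates 2 and 3 lay within it. The means were 878 ± 156 in KO and 748 ± 61.9 in WT (SD, n = 4 each), and the log2 fold change of 0.22 (SE 0.12, 95% interval -0.05 to 0.49) had a limma adjusted p of 0.399. Without KO replicate 1 the log2 fold change was 0.12.

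Summed over the 6 P450 genes, scaled FPKM was 1819, 1391, 1469 and 1665 in KO replicates 1 to 4, against 1417, 1303, 1445 and 1470.0 in WT replicates 1 to 4. The sum followed Cyp2e1, which made 55.1% ± 3.17 of it in KO and 53.0% ± 2.03 in WT, and Cyp2j5, which made 36.2% ± 2.32 in KO and 36.8% ± 1.04 in WT (SD, n = 4 each). Cyp2j11 came next at 5.95% ± 0.445 in KO and 6.03% ± 0.373 in WT. The shares of Cyp2c44 were 0.928%, 2.01%, 1.67% and 2.12% in KO replicates 1 to 4, against 2.59%, 3.28%, 3.71% and 2.33% in WT replicates 1 to 4. The share of Cyp2c44 did not overlap between the groups although its level did, since the sum was higher in KO replicate 4 than in WT replicate 4. In the same terms there were 16.8 to 36.1 units of Cyp2j5 for each unit of Cyp2c44 in KO and 10.0 to 15.5 in WT. These sums and ratios describe the libraries and were not tested.

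**Figure D3:**
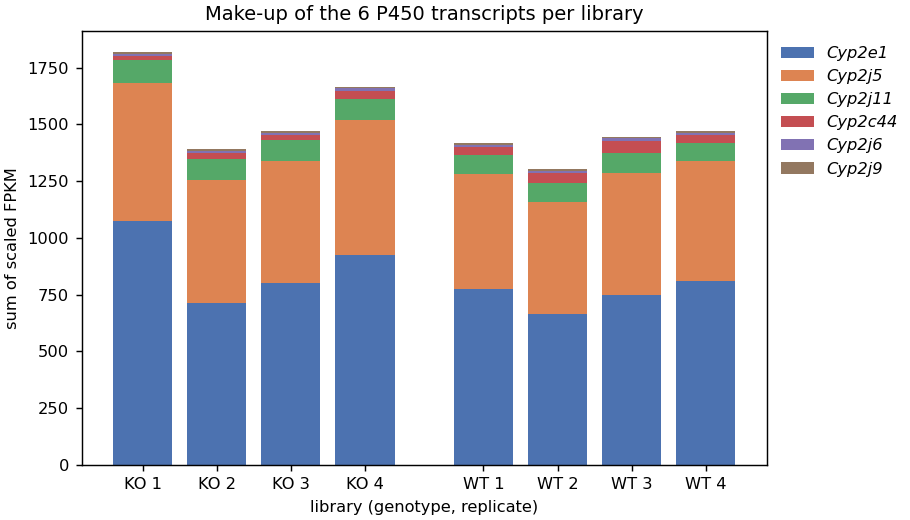
Scaled FPKM of the 6 P450 genes stacked per library (vertical axis, linear, from 0), with KO libraries on the left and WT libraries on the right. Cyp2e1 and Cyp2j5 fill most of each bar, and the tallest is KO replicate 1 at 1819.

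Ephx2 encodes soluble epoxide hydrolase, the enzyme chiefly known for turning EETs into dihydroxy acids. It measured 238.5, 195.6, 195 and 200.0 scaled FPKM in KO replicates 1 to 4, against 189.8, 193, 185.5 and 196 in WT replicates 1 to 4. KO replicate 1 stood apart from the other KO libraries, of which replicates 2 and 3 lay just under the highest WT library and replicate 4 just above it. The means were 207 ± 20.9 in KO and 191 ± 4.37 in WT (SD, n = 4 each), and the log2 fold change of 0.11 (SE 0.07, 95% interval -0.04 to 0.27) had a limma adjusted p of 0.443. Without KO replicate 1 it was 0.04. The WT libraries varied little, with a coefficient of variation of 2.29%, the smallest of the 8 genes in either group.

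Ephx1 encodes microsomal epoxide hydrolase, best known for detoxifying epoxides of foreign compounds, with EETs as a further substrate. It measured 34.3, 32.5, 49.1 and 32.2 scaled FPKM in KO replicates 1 to 4, against 27.4, 37.9, 45.2 and 32.6 in WT replicates 1 to 4. The groups overlapped over most of their range, with 1 high library in KO and another in WT. The means were 37.0 ± 8.14 in KO and 35.8 ± 7.58 in WT (SD, n = 4 each), the log2 fold change was 0.05 (SE 0.17, limma adjusted p = 0.911), and the 95% interval of -0.33 to 0.43 leaves room for KO levels from 0.797 to 1.34 times those of WT.

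For 100 units of scaled FPKM of the 6 P450 genes there were 13.1 ± 0.845 of Ephx2 in KO and 13.6 ± 0.840 in WT, and 2.37 ± 0.678 of Ephx1 in KO and 2.55 ± 0.563 in WT (SD, n = 4 each). The balance of hydrolase transcripts to this sum was thus close between the genotypes relative to the spread. Cyp2e1 made 55.1% of the sum in KO and 53.0% in WT, so the balance describes single epoxygenases less well. For each unit of Ephx1 there was 0.738 ± 0.295 of Cyp2c44 in KO and 1.175 ± 0.123 in WT (SD, n = 4 each). Ephx2 was 3.97 to 6.96 times as high as Ephx1 in KO and 4.11 to 6.92 times in WT.

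**Figure D4:**
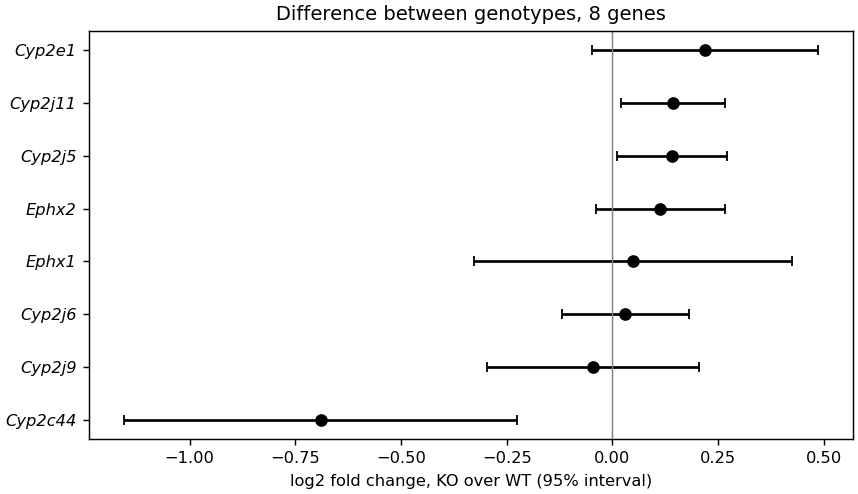
The 8 genes by their log2 fold change, KO relative to WT, on the horizontal axis, with points for the limma estimate and bars for its 95% interval without adjustment for the number of genes. The intervals of Cyp2j11, Cyp2j5 and Cyp2c44 leave out 0, and Cyp2c44 stands apart at -0.69.

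The 8 genes also differed from each other by library within a genotype. KO replicate 1 was the highest of the 8 libraries for 6 genes, namely Cyp2j5, Cyp2j6, Cyp2j9, Cyp2j11, Cyp2e1 and Ephx2, and the lowest for Cyp2c44. WT replicate 3 was the highest for Cyp2c44 and the lowest for Ephx2, and KO replicate 3 was the highest for Ephx1. Androgen-responsive genes of the kidney are given beside this: Slco1a1, an organic anion transporter, measured 98.5, 63.4, 65.2 and 59.3 in KO replicates 1 to 4, against 39.1, 19.8, 7.84 and 41.8 in WT replicates 1 to 4. KO replicate 1 and WT replicate 3 were the 2 extremes for Slco1a1 as they were for Cyp2c44, in the opposite sense. In WT replicate 3, where Slco1a1 was lowest, Cyp2j5 was the highest of the WT libraries (537) and Cyp2e1 (747) lay inside the WT range. Of the 11 androgen-responsive genes listed, 10 were above and 1 below 0 in log2 fold change, with a median of 0.55, and 0 were called. At an unadjusted limma p under 0.05 stood 9, all higher in KO, beside 7.18% of all tested genes higher in KO at that threshold. Of the 11 listed genes Odc1, a polyamine synthesis gene, had the smallest p, at 425 ± 88.6 scaled FPKM in KO and 263 ± 60.3 in WT (SD, n = 4 each, log2 fold change 0.70, limma adjusted p = 0.164), and Cyp2j13, given above, the next. Odc1 (206), Cyp2j13 (46.5) and Slc22a30 (49.9) were lowest in WT replicate 2, where Cyp2j5 (496) and Cyp2e1 (662.5) were also lowest of the 8 libraries. Kap, Cyp7b1, Slc7a13, Cyp4a12a and Acsm3 were, like Slco1a1, lowest in WT replicate 3. Gusb was lowest in WT replicate 1 and Timd2 in KO replicate 3. The part of the androgen-responsive genes in the values of Cyp2j5, Cyp2e1 and Cyp2c44 was not tested.

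Markers of the tubule segments and of injury were read in the same way. For them and for the androgen-responsive genes, GC and length trends were not removed. Of 8 markers of the convoluted proximal tubule, 7 were below and 1 above 0, with a median log2 fold change of -0.21. Their summed scaled FPKM was 3307 to 3536 in KO and 3848 to 4100.0 in WT, most of it from Slc34a1 (2318 to 2995). Of 7 markers of the straight part, 6 were above 0, with a median of 0.43 and sums of 925 to 1128 in KO and 554 to 863 in WT. Slc7a13 (285 to 563 over all libraries) and Atp11a (92.0 to 250.5) made most of these sums. Slc7a13 and Cyp7b1 of this list are also among the androgen-responsive genes listed, so the lists are not separate. Of 7 tested markers of tubule injury, 5 were below and 2 above 0, with a median of -0.36. The injury sums were 343 to 466 in KO and 328.5 to 675 in WT, most of each from Spp1. None of the 3 marker lists held a called gene (0 each). Ephx1 was highest in KO replicate 3, WT replicate 3 and WT replicate 2, the libraries that were also highest for the injury marker Lcn2, at 4.07, 3.40 and 2.05 scaled FPKM against 0.352 to 0.779 in the others. Of the other injury markers Spp1 was highest in the same libraries (346, 555 and 341 against 238 to 261 in the others), whereas Havcr1 was at its lowest in KO replicate 3 (0.482), where Vcam1 (4.63) and Sox9 (0.502) were not among the highest either. KO replicate 3 also had the highest Aqp2, a collecting duct water channel, at 446 against 108 to 189 in the other libraries. Lcn2 was set beside Ephx1 after the values were seen, and the part of injury or of segment make-up in any of the 8 genes was not tested.

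For each of the 8 genes the most similar profile was sought among the 8161 genes with a mean of at least 5 scaled FPKM, as the smallest root mean square difference of log2 levels over the 8 libraries after each gene was centred on its own mean. Cyp2c44 was most like BC089597 (0.143 log2 units), which measured 83.0 ± 25.5 scaled FPKM in KO and 138 ± 41.6 in WT (SD, n = 4 each, limma adjusted p = 0.244). Cyp2j5 was most like Ppp6c (0.0225), Cyp2j11 most like Dld (0.0245), Cyp2j6 most like Prdx1 (0.0237) and Cyp2j9 most like Tet2 (0.0661). Cyp2e1 was most like the long noncoding RNA RP24-209M20.1 (0.0560), Ephx1 most like the endothelial gene Emcn (0.0787) and Ephx2 most like Hs2st1 (0.0355). Within the 8 genes, Cyp2j5 and Cyp2j11 were the closest pair (0.0422), in which Cyp2j11 ranked 52 among all genes by nearness to Cyp2j5. Genes that vary little lie near many others by this measure, and it is a description of 8 libraries.

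Genes around the pathway, here and in the following paragraphs, were read from the same test, without removal of GC and length trends. The part of the GC differences between libraries, given above, in the directions of these genes was not tested. In the list of P450 electron donors, which also holds the gene of the haem-binding Pgrmc1, 6 genes were tested and 0 called, with 3 above and 3 below 0. The reductase gene Por measured 170.5 ± 4.96 scaled FPKM in KO and 176 ± 20.4 in WT, and cytochrome b5 (Cyb5a) 528 ± 26.9 in KO and 503 ± 19.8 in WT (SD, n = 4 each, limma adjusted p of 0.859 and 0.569). The remaining genes of this list, Cyb5b, Cyb5r1, Cyb5r3 and Pgrmc1, had log2 fold changes of 0.06, 0.09, -0.06 and -0.03. Of other hydrolases, Lta4h, which opens the epoxide of leukotriene A4, measured 18.4 ± 0.412 in KO and 19.6 ± 0.820 in WT, without overlap of the groups (log2 fold change -0.09, limma adjusted p = 0.410). Mest stood at 0.673 ± 0.0808 in KO and 0.858 ± 0.122 in WT, and Ephx3 and Ephx4 were at 0.405 and 0.189 at most in KO and 0.334 and 0.0488 at most in WT.

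The supply and the competing uses of arachidonic acid gave 0 called genes in every list. Of 18 tested genes that release or re-esterify it, 7 were above and 11 below 0, with a median log2 fold change of -0.04; the lipase gene Pnpla2 measured 45.4 ± 3.02 in KO and 53.0 ± 2.66 in WT, and the phospholipase gene Pla2g5 3.48 ± 0.376 in KO and 4.37 ± 0.240 in WT (SD, n = 4 each, limma adjusted p of 0.176 and 0.187). Neither pair of groups overlapped. Of 12 omega-hydroxylase genes, some of whose products make 20-HETE from the same substrate, 3 were above and 9 below 0 (median -0.09). Cyp4a10 had a log2 fold change of -0.77 (limma adjusted p = 0.173), Cyp4a32 of 0.27 (0.236) and Cyp4a12a of 0.70 (0.358). Of 10 genes of the cyclooxygenase branch 5 were on each side (median -0.05), with Cbr1 at -0.43 (limma adjusted p = 0.241) and Ptges3 at 0.13 (0.415). Of 4 genes of the lipoxygenase branch 3 were below 0 (median -0.16), with Gpx4 at -0.18 (limma adjusted p = 0.277) and Alox12 at 0.16 (0.508).

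Proposed targets of EETs and regulators of these genes were also without a call. Of 7 tested targets, 6 were below and 1 above 0 (median log2 fold change -0.12). Scnn1a, the alpha subunit of the epithelial sodium channel, which EETs are known to inhibit, measured 30.8, 25.7, 31.9 and 27.1 scaled FPKM in KO replicates 1 to 4, against 34.2, 33.6, 33.7 and 34.8 in WT replicates 1 to 4. All 4 KO libraries lay below the WT libraries, and the log2 fold change of -0.24 (SE 0.07) had a limma adjusted p of 0.192. The beta subunit Scnn1b stood at -0.15 (limma adjusted p = 0.394). Of 14 transcription factor genes reported to act on these or related genes, 4 were above and 10 below 0 (median -0.05). The xenobiotic receptor Nr1i2 measured 2.42 ± 0.290 in KO and 3.33 ± 0.339 in WT, without overlap (SD, n = 4 each, log2 fold change -0.39, limma adjusted p = 0.159). Cebpb, with a high GC content of 67.2%, stood at -0.42 (limma adjusted p = 0.184).

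**Figure D5:**
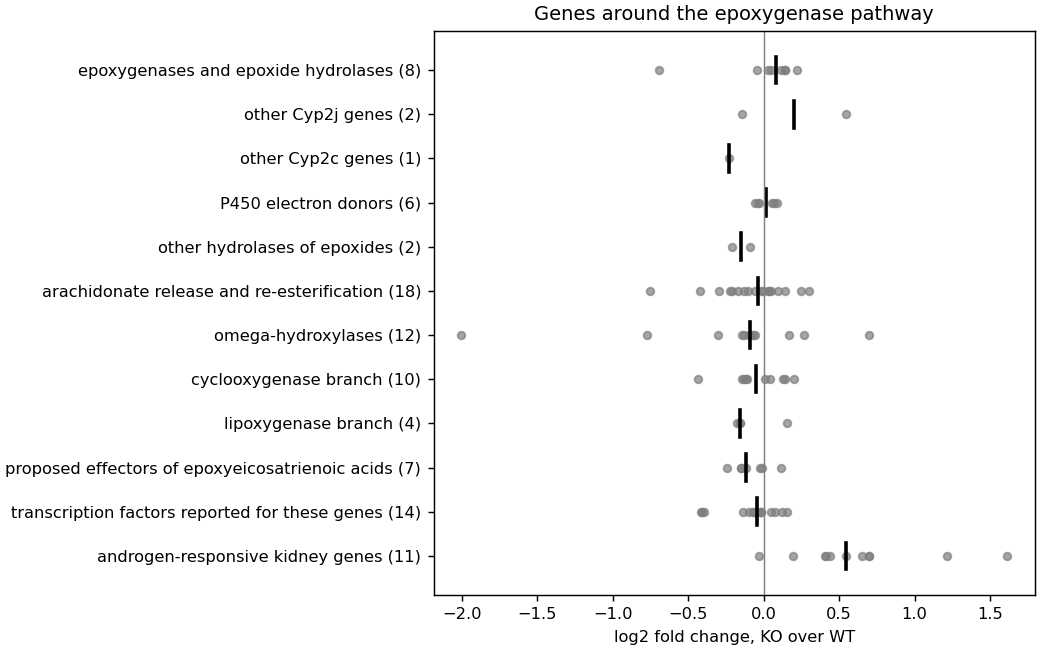
The 8 epoxygenases and epoxide hydrolases and the lists around them, 1 row a list with its number tested in brackets, by log2 fold change of KO relative to WT on the horizontal axis; each point is a gene and each black bar a median. No point passed an adjusted p of 0.05. The medians lie between -0.23 and 0.20 except for the androgen-responsive genes at 0.55. The point farthest left is the omega-hydroxylase gene Cyp4a14 at -2.004 (limma adjusted p = 0.239). Cyp4a14 measured 11.0, 51.9, 134.8 and 17.2 scaled FPKM in WT replicates 1 to 4, against 4.09 to 14.4 in KO, so its groups overlap.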

How the data were processed

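The authors deposited 1 table of FPKM for 23386 genes and 8 kidney libraries, per the file headers, with gene length, type and position. The submitters' processing notes name build mm10, CASAVA, STAR 2.5, HTSeq 0.6.1 and DESeq2, with no roles; the annotation release and strand setting are not given in the sources used here. No column of another sample was present. The deposited FPKM times gene length gave whole multiples of 1 step per library for 100% of values (tolerance 0.01), so reads could be recovered, 15027400 to 19256378 per library.

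Each library's deposited FPKM was divided by a median-ratio factor (0.978 to 1.035). Genes with a mean of at least 0.5 were kept (14022). The log2 of scaled FPKM plus 0.5 went into limma 3.58.1 (R 4.3.3), whose linear model held genotype alone and whose eBayes step used a mean-variance trend. Two-sided p-values had Benjamini-Hochberg adjustment over all genes tested and genes were called at an adjusted p under 0.05. Log2 fold changes are on the log2(value + 0.5) scale, which understates changes of low genes. SD is over 4 libraries.

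The 8 genes and the lists around them were chosen with earlier results of these data known. Besides the 8 genes, the text names from each pathway list the called genes, or otherwise the 2 of smallest p, all tested Cyp2j, Cyp2c, hydrolase and electron donor genes, and the most similar profile for each of the 8. Marker lists are given by counts and sums. Single markers, Slco1a1, Cyp4a12a, Cyp4a14 and the other androgen-responsive genes besides Odc1 and Cyp2j13 were named after their values were seen. Promoters and starts are RefSeq's, and 1 further promoter is not reported here; GC content (99.5% of tested genes) and transcripts are from GENCODE vM21. Protein sequences were not analysed here. Alternatives were other pseudocounts, filters, scalings, limma settings and threshold, voom on recovered reads, removal of GC and length trends, and leaving out each library; overlap of the groups under other scalings and the P450 sums without each library were added after seeing the data.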

Additional observations from a re-analysis of the deposited data

Results flagged for a closer look

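In 2 of the 16 groups of 4 libraries checked, the highest library stood apart from the other 3, its gap to the next library taking up more of the group's range than the 95% critical value of Dixon's test allows. Chance flags about 1 in 20 groups. Ephx2 stood at 238.5 scaled FPKM in KO replicate 1, with a gap of 0.885 of the range. KO replicate 1 was also the highest library for Cyp2e1 and the 4 Cyp2j genes described. Ephx1 stood at 49.1 in KO replicate 3, with a gap of 0.877 of the range.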

How the results depend on the processing

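Under each of the 20 alternatives that refitted the model, and at an adjusted p under 0.1, 0 of the 8 genes were called, and the lowest limma adjusted p of any of them was 0.143 (Cyp2j11). Cyp2c44 ran from -0.85 to -0.50 in log2 fold change, Cyp2j5 from 0.08 to 0.17, Cyp2j11 from 0.08 to 0.17, Cyp2e1 from 0.12 to 0.31 and Ephx2 from 0.04 to 0.16, each without a change of sign. With GC and length trends removed, Cyp2j5 and Cyp2j11 both stood at 0.08 and Cyp2c44 at -0.70. With a library left out, Cyp2j6 ran from -0.0089 to 0.0763 and Cyp2j9 from -0.1607 to 0.0329. Small differences turned round in 5 cases. Cyp2j6 was at -0.0451 with GC and length trends removed and at -0.0089 without KO replicate 1, Cyp2j9 at 0.0329 without KO replicate 3, and Ephx1 at -0.0932 without KO replicate 3 and -0.0688 without WT replicate 1; the cause was not tested. Over all genes the number called was 7, and it ran from 5 to 16 when a library was left out, the 16 without WT replicate 3. In the FPKM as deposited and after quantile normalization the groups did not overlap for 3 of the 8 genes (Cyp2j5, Cyp2j11 and Ephx2), where 8.74% and 8.32% of all genes did not, against 1 in scaled FPKM. The P450 sum, Ephx1 and Ephx2 relative to it, and the share of Cyp2c44 in it were recomputed with a library left out or under another scaling. All 48 values moved by less than 1 SD. Leaving out 1 of 4 libraries cannot move a mean by 1 SD, and a factor per library leaves ratios within a library unchanged. Most of these values thus could not have moved that far. The other ratios were not recomputed. No paired analysis was possible because the labels give the animals of the 2 groups no shared numbers. Cyp2j9 rests on the fewest reads of the 8 genes, 232 in its lowest library.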
